A study of Mus musculus with 12 samples.

Results

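10 genes of fatty acid synthesis and desaturation were followed through 4 groups of cultured primary mouse hepatocytes. They are Acly, Acaca, Fasn, Elovl6, Elovl5, Scd1, Scd2, Fads1, Fads2 and Srebf1, listed by name with earlier results of these data known, so that the counts of called members below describe the list and are no independent evidence about it. Each was matched from its mouse symbol to the identifier in the count files, and all 10 passed the filter on low counts, among 13535 genes tested out of 55487 identifiers listed. The libraries form 4 groups with 3 replicates each. Control cells received neither a scavenger nor FAC. FAC cells received FAC, an abbreviation that the labels leave unexplained. Lip-1+FAC cells were pretreated on day 2 of culture with liproxstatin-1, described in the labels as scavenging lipid ROS (reactive oxygen species), and then received FAC. MT+FAC cells were pretreated with Mito-TEMPO, described as scavenging mitochondrial ROS, and then received FAC. No group received a scavenger without FAC, so the pretreated groups differ from control by both agents. Doses, exposure times, mouse strain, age and genotype are not given in the sources used here, nor is it said whether replicates came from separate animals or cultures. P-values therefore measure only the spread between these libraries, which may be technical.

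The 10 genes cover the route from citrate to monounsaturated fatty acids, steps that act on dietary polyunsaturated fatty acids, and a regulator. Acly cleaves citrate to cytosolic acetyl-CoA, Acaca carboxylates it to malonyl-CoA, and Fasn builds palmitate from both. Elovl6 lengthens palmitate, Scd1 and Scd2 place the first double bond in saturated acyl-CoAs, and Fads1, Fads2 and Elovl5 desaturate and lengthen dietary polyunsaturated fatty acids. Srebf1 encodes SREBP-1, a membrane-bound transcription factor of these genes that becomes active when SCAP escorts it out of the endoplasmic reticulum, a step that INSIG proteins hold back. In liver the route from citrate turns dietary carbohydrate into fat. The balance of monounsaturated and polyunsaturated acyl chains in membranes is known to set how readily they undergo lipid peroxidation.

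Reads assigned to genes numbered 22991598 to 31683376 in 11 libraries and 52529278 in FAC replicate 2, whose file is marked as combined without saying what was combined. Replicates of a group differed by more than counting noise, with a chi-square of 8.56 to 22.6 per degree of freedom, so none was merged. The labelled cell type was checked against marker genes. All 10 hepatocyte markers were measured, and their summed level was 51363 to 61802 CPM (counts per gene relative to the TMM-scaled library total) in every library, most of it Trf, which went against most of the list. By edgeR at an adjusted p under 0.05, 8 of 10 were lower and 1 higher in Lip-1+FAC than in control (median log2 fold change -0.47), and 6 lower and 2 higher in MT+FAC than in control (median -0.44). Against FAC, 6 were lower and 2 higher with Lip-1, and 5 lower and 2 higher with MT. Mean Cyp2e1 went from 449 CPM with FAC alone to 141.8 after Lip-1 and 159 after MT, and mean Trf from 33565 to 42087 and 44615 CPM. Of the macrophage markers, Adgre1, Clec4f, Vsig4 and Ptprc had group means of at most 1.20 CPM, and Csf1r, Marco and Lyz2 of 2.68 to 4.44 CPM. The summed macrophage list, nearly all of it Cd68, ran from 226 to 260.1 CPM in control libraries, 292 to 324 with FAC alone, 121 to 150.6 after Lip-1 and 145.9 to 179 after MT. Over FAC, Cd68 was lower with either pretreatment, while 1 of the 7 tested was higher with Lip-1 (Lyz2) and 2 with MT (Lyz2 and Clec4f), with list medians of 0.13 and 0.16. The summed stellate and fibroblast list spanned 18.5 to 25.9, 28.4 to 36.9, 12.3 to 15.7 and 15.03 to 19.9 CPM in the same order. Reln and Acta2 made up most of that sum, and the list's median log2 fold change had the opposite sign, at -0.33 with FAC, 0.18 with Lip-1 over FAC and 0.64 with MT over FAC. The summed endothelial list spanned 35.8 to 37.1, 34.2 to 34.9, 26.6 to 27.3 and 27.1 to 30.8 CPM, most of it Stab2, which was lower with either pretreatment than with FAC alone. Tek was higher, and the list's medians were 0.023 with Lip-1 and 0.24 with MT. The summed cholangiocyte list spanned 58.6 to 69.0 CPM in control libraries, 98.4 to 123 with FAC alone, 109.6 to 125 after Lip-1 and 104 to 145 after MT. The sums after pretreatment were mostly Spp1, at 43.6 CPM with FAC alone, 101 after Lip-1 and 103 after MT. Of the 5 cholangiocyte markers tested, 4 were higher with FAC, and over FAC 4 were lower and 1, Spp1, was higher with either pretreatment (medians -2.46 and -1.88), Sox9 going from 53.4 CPM to 12.01 and 15.1. Of the lymphocyte markers 3 of 5 (Cd3e, Nkg7 and Ms4a1), and of the adipocyte markers 3 of 4 (Adipoq, Lep and Cfd), were at 0 in all 12 libraries. The part of these marker levels in the results was not tested. In bulk RNA a smaller share of cells of a type and less RNA per cell cannot be told apart.

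Across the 4 groups the genes did not move as one block. With either pretreatment before FAC, Scd2, Acaca, Acly and Elovl5 were higher than with FAC alone and Fads1 and Fads2 were lower, whereas Scd1, the most abundant of the 10, met the threshold in none of the 6 comparisons, although several other settings called it against control. In Lip-1+FAC against FAC, 9 of 10 genes were called by edgeR's quasi-likelihood test at a Benjamini-Hochberg adjusted p under 0.05, 6 higher and 3 lower, against 39.9% of all genes tested (20.7% higher and 19.2% lower). In MT+FAC against FAC, 6 of 10 were called, 4 higher and 2 lower, against 40.9% of all genes (21.2% higher and 19.7% lower). FAC alone against control gave 3 calls, Fads1 higher and Scd2 and Elovl5 lower. The background there was 36.6% of all genes (17.5% higher and 19.1% lower), so this count was no larger than the background share. The direct comparison of the pretreatments gave 2 calls, Scd2 and Acly, both lower in MT+FAC than in Lip-1+FAC, against 1.34% of all genes (0.465% higher and 0.879% lower). The median log2 fold change of the 10 genes was 0.14 in FAC against control, 0.39 in Lip-1+FAC against FAC, 0.17 in MT+FAC against FAC and -0.20 in MT+FAC against Lip-1+FAC, where the medians of all genes lay between -0.0061 and 0.0021. The first 3 of these comparisons share the FAC libraries. Without FAC replicate 2, FAC against control gave 5 calls among the 10.

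**Figure D1:**
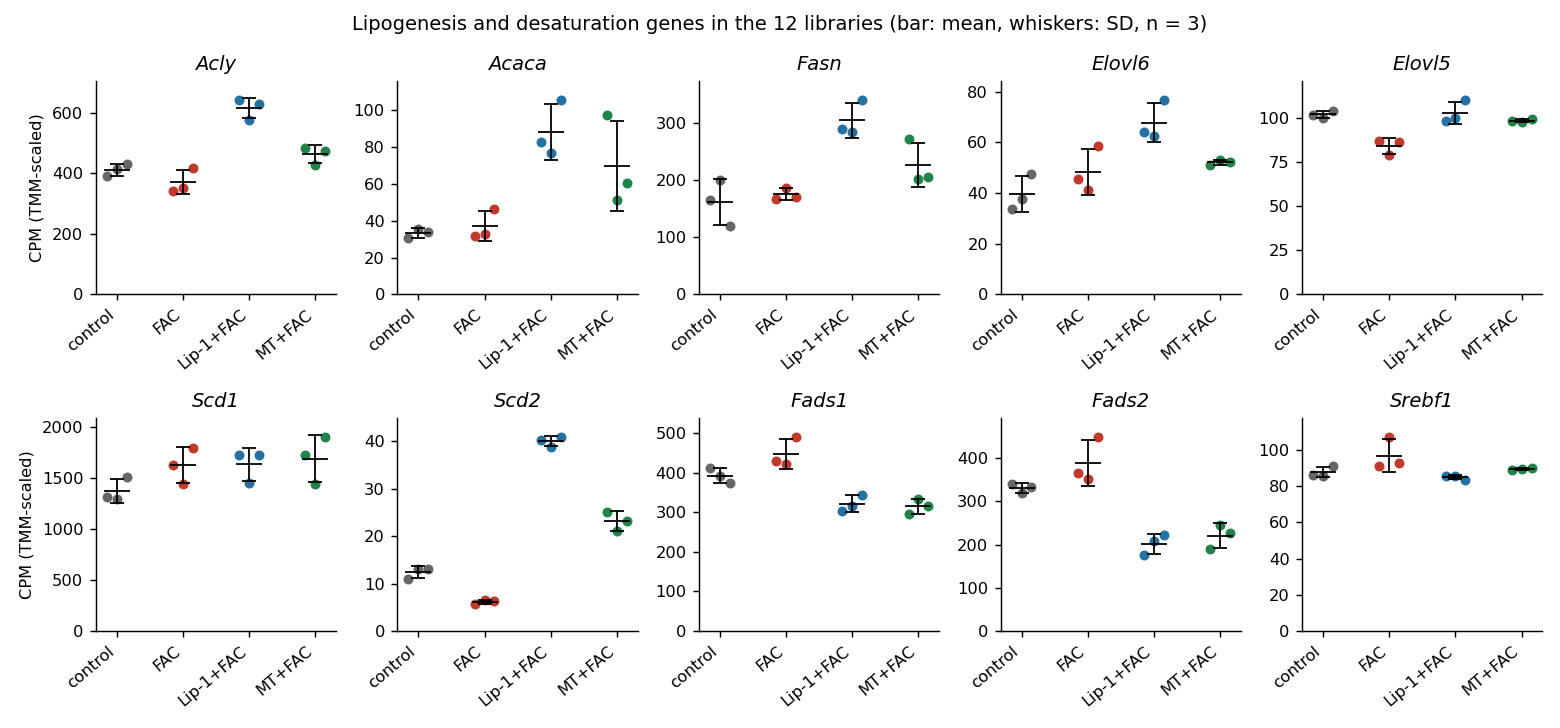
Level of each gene in each library in CPM (y axes start at 0, linear, one scale per gene), by group on the x axis, with the mean as a bar and the SD as whiskers (n = 3). Scd2 lies at 5.63 to 6.47 CPM in the FAC libraries and at 38.9 to 40.9 CPM in the Lip-1+FAC libraries, whereas the FAC, Lip-1+FAC and MT+FAC points of Scd1 overlap.

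**Figure D2:**
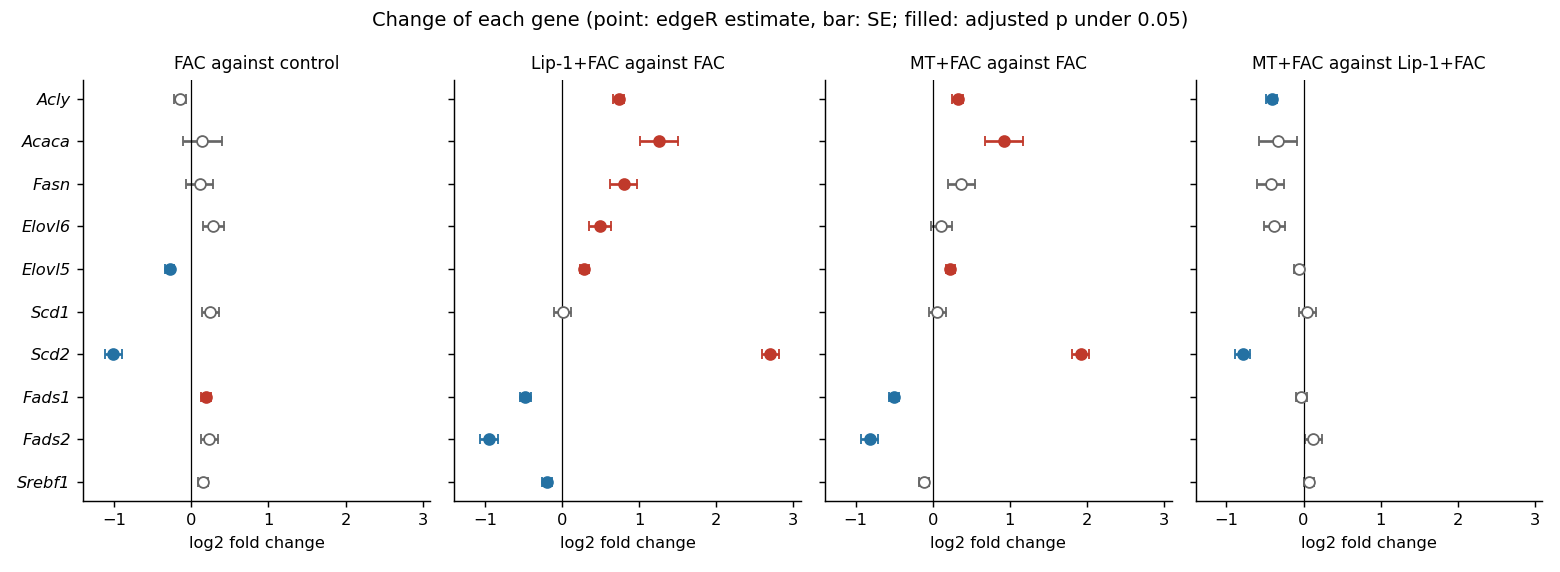
Log2 fold change of each gene in 4 comparisons (x axis), estimated by edgeR, with its standard error as a bar. Filled points passed an adjusted p under 0.05, red for higher and blue for lower, and open points did not. Scd2 has the largest change in the first 3 panels, -1.01, 2.70 and 1.92.

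The bases just upstream of the annotated starts of Fasn, Acly and Elovl5 are printed here because these genes were called higher after pretreatment with Lip-1 and their RefSeq starts lie within 1 base of the start of the gene model in GENCODE M21, the annotation used here for gene positions. They were taken from RefSeq promoter windows (build GRCm38.p6) that run from 250 bases before to 50 bases after a start, and are shown 5′ to 3′ on the gene's strand up to the last base before the start. Capitals mark matches on either strand to a CCAAT box (CCAAT), a GC box (GGGCGG) or an E-box (CACGTG), letters known as docking sites for NF-Y, for Sp1 and for E-box factors such as USF. The stretch of Fasn is chr11:120824548-120824797 on the minus strand, that of Acly chr11:100528001-100528250 on the minus strand and that of Elovl5 chr9:77917115-77917364 on the plus strand.
Fasn: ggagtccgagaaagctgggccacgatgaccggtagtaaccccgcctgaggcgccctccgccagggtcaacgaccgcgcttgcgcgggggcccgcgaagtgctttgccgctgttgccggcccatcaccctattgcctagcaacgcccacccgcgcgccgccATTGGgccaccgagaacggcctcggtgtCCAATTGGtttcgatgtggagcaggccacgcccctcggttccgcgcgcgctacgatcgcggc
Acly: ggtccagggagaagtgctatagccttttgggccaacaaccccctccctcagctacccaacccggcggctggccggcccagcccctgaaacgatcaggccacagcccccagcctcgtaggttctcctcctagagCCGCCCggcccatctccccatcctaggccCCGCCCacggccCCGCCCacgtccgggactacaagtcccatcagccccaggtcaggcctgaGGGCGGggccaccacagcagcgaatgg
Elovl5: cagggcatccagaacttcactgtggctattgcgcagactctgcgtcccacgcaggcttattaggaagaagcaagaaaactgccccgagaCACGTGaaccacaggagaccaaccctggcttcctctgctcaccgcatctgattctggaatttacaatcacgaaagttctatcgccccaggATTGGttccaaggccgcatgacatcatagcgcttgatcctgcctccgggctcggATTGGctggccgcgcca
The Fasn stretch holds CCAAT boxes at positions -90, -62 and -59 from the start, the last 2 overlapping each other. Acly has GC boxes at -117, -88, -76 and -27, and a CCAAT box at 38 in the transcript, outside the stretch shown. Elovl5 has CCAAT boxes at -71 and -17 and an E-box at -161. The window of Fads2, which fell after either pretreatment, has a GC box at -186. The RefSeq start from which this position is counted lies inside the gene model of Fads2, as does the GC box. Windows existed for 7 of the 10 genes, 9 in all because Srebf1 has 3. The only window of Acaca, chr11:84195188-84195487, lies inside the gene and does not cover the start of its gene model at 84129672. Scd1, Scd2 and Fads1 had none. A CCAAT box occurred in 5 of the 9 windows (4 genes) and in 37.4% of all 32851 windows, a GC box in 4 windows (3 genes) and in 35.7% of all, and the E-box in 1 window and in 7.15% of all. The core of the sterol regulatory element, TCACNCCAC, was found in none of the 9 windows and in 1.24% of all windows, and the same letters preceded by A in none and in 0.234%. The LXR element, AGGTCA repeated after 4 bases of any kind, was found in none of the 9 and in 0.0152% of all. All were searched on both strands. Matches are descriptions of letters, and the absence of one says only that these letters are not in these windows.

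Acly, which supplies cytosolic acetyl-CoA (chr11:100476353-100528000, minus strand, GRCm38), was higher after either pretreatment and highest with Lip-1. Its level was 390.0, 413 and 430.1 CPM in control replicates 1, 2 and 3, then 343, 353 and 418 CPM with FAC alone, 642, 577 and 630.2 CPM in the Lip-1+FAC libraries and 485, 429.6 and 476 CPM in MT+FAC. All Lip-1+FAC libraries lay above all others, and the MT+FAC libraries lay above the FAC libraries. Against FAC, Acly rose by 0.73 (SE 0.0734) on the log2 scale with Lip-1 (edgeR adjusted p = 5.41e-07) and by 0.32 (SE 0.0731) with MT (edgeR adjusted p = 0.00202). The difference between the pretreatments was -0.41 (95% interval -0.56 to -0.26, edgeR adjusted p = 0.00652), and it kept its call in every alternative setting run, at -0.47 to -0.37. Its difference with FAC alone was -0.15 (edgeR adjusted p = 0.126), and it was called without FAC replicate 3, at -0.24, and was -0.0905 without FAC replicate 1.

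Acaca, which makes malonyl-CoA (chr11:84129672-84401651, plus strand), showed a wide spread between replicates, most of all in MT+FAC. Control libraries held 30.5, 35.7 and 34.0 CPM, FAC libraries 31.7, 32.9 and 46.4 CPM, Lip-1+FAC libraries 82.7, 76.7 and 105 CPM, and MT+FAC libraries 97.8, 51.3 and 60.4 CPM. Every pretreated library lay above every library without pretreatment, while the pretreated groups overlapped each other. The rise over FAC was 1.26 (SE 0.252, edgeR adjusted p = 0.00348) with Lip-1, a fold of 2.39. With MT it was 0.92 (SE 0.251, edgeR adjusted p = 0.0163), a fold of 1.90, and this call was lost without FAC replicate 1 (0.82), without FAC replicate 2 (0.84) and in a fit of the compared libraries only (0.92). Without MT+FAC replicate 1, the highest of its group, the difference was 0.59 and still called. Lip-1+FAC and MT+FAC differed by -0.34 (95% interval -0.89 to 0.22, edgeR adjusted p = 0.645; -0.66 to -0.17 leaving out each library). FAC alone gave 0.14 (95% interval -0.44 to 0.72, edgeR adjusted p = 0.711), which turned to -0.0452 without FAC replicate 3. Acaca has an annotated processed pseudogene, Gm5182, that matches it at 99.2% over 6118 bases. Reads fitting both are counted to neither, so its level is uncertain and may be too low.

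Fasn, the synthase that makes palmitate (chr11:120805846-120824547, minus strand), followed the same order of groups. It measured 166, 201 and 121 CPM in control, 167, 187 and 171 CPM with FAC alone, 289, 285 and 339.8 CPM in the Lip-1+FAC libraries and 271, 203 and 205 CPM in MT+FAC. The Lip-1+FAC libraries lay above all others, and the MT+FAC libraries above those of FAC and control. Fasn rose by 0.80 (SE 0.178, edgeR adjusted p = 0.00564) from FAC to Lip-1+FAC, a fold of 1.74. Its difference of 0.37 from FAC to MT+FAC (95% interval -0.03 to 0.77, edgeR adjusted p = 0.126) did not pass, but was called with only the compared libraries (0.37) and with offsets for GC content and length (0.46), whereas it was 0.21 without MT+FAC replicate 1. With FAC alone it was 0.11 (95% interval -0.29 to 0.51, edgeR adjusted p = 0.685), and -0.0671 without control replicate 3. The pretreated groups differed by -0.43 (95% interval -0.82 to -0.03, edgeR adjusted p = 0.33).

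Elovl6, the elongase acting on palmitate (chr3:129532355-129638495, plus strand), was called higher in Lip-1+FAC against FAC and against control, and in no other comparison. Its libraries measured 33.5, 37.6 and 47.5 CPM in control, 45.3, 41.1 and 58.6 CPM with FAC alone, 64.1, 62.6 and 76.5 CPM in the Lip-1+FAC libraries and 50.9, 53.1 and 52.2 CPM in MT+FAC. The Lip-1+FAC libraries lay above all others, and MT+FAC lay inside the FAC range. Against FAC it rose by 0.49 (SE 0.138, edgeR adjusted p = 0.0125) with Lip-1, a call lost when per-gene offsets for GC content and length were added (0.37). With MT the difference was 0.11 (95% interval -0.19 to 0.41, edgeR adjusted p = 0.55; 0.0053 to 0.27 leaving out each library), and between the pretreatments it was -0.38 (95% interval -0.68 to -0.08, edgeR adjusted p = 0.235), the latter called without a low-count filter (-0.37) and with only the compared libraries (-0.38). FAC alone gave 0.28 (95% interval -0.02 to 0.59, edgeR adjusted p = 0.133), which was called without control replicate 3 (0.44) or without FAC replicate 2 (0.40), and without a low-count filter (0.30), whereas it was 0.13 without FAC replicate 3. It was also called with the replicate number as a block (0.29). A pseudogene of Elovl6, Gm11295, matches it at 97.4% over 805 bases.

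Elovl5, the elongase of polyunsaturated chains (chr9:77917364-77984519, plus strand), was lower with FAC alone and near the control level after either pretreatment. It stood at 102, 100.1 and 104 CPM in control, 86.7, 78.8 and 86.4 CPM with FAC alone, 98.2, 99.9 and 109.8 CPM in the Lip-1+FAC libraries and 98.5, 97.6 and 99.1 CPM in MT+FAC. Every FAC library lay below every other library, and the 2 pretreated groups overlapped. Elovl5 fell by 0.28 (SE 0.0608, edgeR adjusted p = 0.00139) on the log2 scale with FAC. It rose over FAC by 0.29 (SE 0.0607, edgeR adjusted p = 0.000971) with Lip-1 and by 0.23 (SE 0.0607, edgeR adjusted p = 0.00589) with MT. These are small changes, and with offsets for GC content and length all 3 lost their calls, at -0.14, 0.15 and 0.10. Against control the pretreated groups differed by 0.0091 with Lip-1 and -0.05 with MT, neither called.

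Scd2 carried the largest change of the 10 genes. It encodes a stearoyl-CoA desaturase that is known as the form abundant in brain and in the developing liver, and lies at chr19:44293674-44306864 on the plus strand. The gene measured 10.9, 13.2 and 13.1 CPM in control and 5.63, 6.47 and 6.26 CPM in FAC. After Lip-1 it measured 40.4, 38.9 and 40.9 CPM, and after MT 25.2, 21.1 and 23.3 CPM. No 2 of the 4 groups overlapped, with the order FAC, control, MT+FAC and Lip-1+FAC from low to high. Scd2 fell by 1.01 (SE 0.109, edgeR adjusted p = 1.34e-06) on the log2 scale with FAC. Over FAC it was 6.51-fold higher with Lip-1 (log2 2.70, SE 0.107, edgeR adjusted p = 1.67e-11) and 3.78-fold higher with MT (log2 1.92, SE 0.106, edgeR adjusted p = 2.07e-09). The MT+FAC level was lower than the Lip-1+FAC level by a log2 difference of -0.79 (95% interval -0.99 to -0.58, edgeR adjusted p = 0.000313). All 4 calls held in every alternative setting run, within -1.10 to -0.95, 2.65 to 2.76, 1.85 to 1.97, and -0.85 to -0.74.

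Scd1, the main hepatic stearoyl-CoA desaturase, lies 87.59 kb from Scd2 at chr19:44394455-44407879 on the minus strand. It measured 1318, 1291 and 1507 CPM in control, 1634, 1447 and 1798 CPM with FAC alone, 1731, 1449.7 and 1724 CPM in the Lip-1+FAC libraries and 1725, 1447 and 1903 CPM in MT+FAC. The 3 groups given FAC spanned nearly the same range, and the control libraries overlapped the lower end of each. The difference between Lip-1+FAC and FAC was 0.0078 (95% interval -0.23 to 0.24, edgeR adjusted p = 0.962), and that between MT+FAC and FAC was 0.06 (95% interval -0.18 to 0.29, edgeR adjusted p = 0.708). Both intervals end well short of the changes of Scd2. FAC against control gave 0.24 (95% interval 0.01 to 0.48, edgeR adjusted p = 0.0988), which was called without FAC replicate 2 (0.32), with DESeq2 (0.26), with only the compared libraries (0.26) and without a low-count filter (0.26). It was also called with the replicate number as a block (0.24). Replicate 2 was the lowest library of Scd1 in each of the 4 groups. Scd1 and Scd2 transcripts match at 94.7% over 624 bases, and Scd1 and Scd3 at 91.4% over 1053 bases, so that single reads from these stretches could be hard to place.

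**Figure D3:**
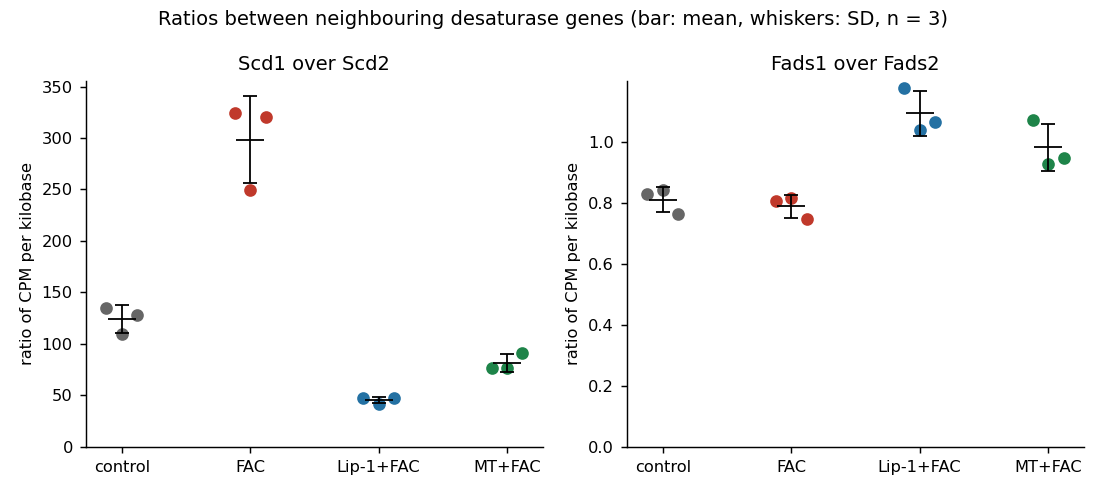
Ratio of levels per kilobase of exon between neighbouring desaturase genes, Scd1 over Scd2 on the left and Fads1 over Fads2 on the right (linear axes from 0), one point per library, with the mean as a bar and the SD as whiskers (n = 3). The Scd1 over Scd2 ratio averages 298 in FAC and 45.6 in Lip-1+FAC, and its 4 groups do not overlap.

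The ratio between both stearoyl-CoA desaturase transcripts followed Scd2. Scd1 exceeded Scd2, in CPM per kilobase of exon, by a ratio of 124 ± 13.3 (SD, n = 3) in control and 298 ± 42.1 in FAC. After Lip-1 the ratio was 45.6 ± 3.38, and after MT it was 81.4 ± 8.60. The libraries spanned 109.5 to 135, 249.6 to 324, 41.7 to 47.9 and 76.4 to 91.3 in these groups, without overlap. No test was run on the ratio.

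Fads1 and Fads2, the delta-5 and delta-6 desaturases of polyunsaturated fatty acid synthesis, moved the opposite way to Scd2. They lie 81.141 kb apart, Fads1 at chr19:10182888-10196877 on the plus strand and Fads2 at chr19:10062765-10101746 on the minus strand. Fads1 measured 411, 391 and 373 CPM in control, 429.5, 420.2 and 489 CPM with FAC alone, 302, 316 and 344 CPM in the Lip-1+FAC libraries and 296, 332 and 314 CPM in MT+FAC. Every pretreated library lay below every control library, and every FAC library lay above. Fads2 measured 340.0, 318 and 334 CPM in control, 365, 353 and 449 CPM with FAC alone, 176, 208 and 221 CPM in the Lip-1+FAC libraries and 189.5, 245 and 227 CPM in MT+FAC. It had the same order of groups, with the pretreated groups overlapping each other.

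Fads1 fell from its FAC level by 0.48 (SE 0.0683, edgeR adjusted p = 2.5e-05) on the log2 scale with Lip-1 and by 0.51 (SE 0.0683, edgeR adjusted p = 1.66e-05) with MT. Fads2 fell by 0.95 (SE 0.112, edgeR adjusted p = 2.23e-05) with Lip-1 and by 0.82 (SE 0.111, edgeR adjusted p = 8.75e-05) with MT. These 4 calls held in every alternative setting run. The pretreatments did not separate here: MT+FAC differed from Lip-1+FAC by -0.03 (95% interval -0.17 to 0.11, edgeR adjusted p = 0.908) for Fads1 and by 0.13 (95% interval -0.11 to 0.37, edgeR adjusted p = 0.698) for Fads2. With FAC alone Fads1 rose by 0.19 (SE 0.0682, edgeR adjusted p = 0.038). That call was lost without control replicate 2 (0.19), control replicate 3 (0.15) or FAC replicate 3 (0.12), and with upper-quartile scaling (0.17). Fads2 differed by 0.23 with FAC (SE 0.111, edgeR adjusted p = 0.121), which did not pass but was called without a low-count filter (0.25), with only the compared libraries (0.25) and with offsets for GC content and length (0.33), whereas it was 0.12 without FAC replicate 3. The Fads1 over Fads2 ratio per kilobase was 0.811 ± 0.0413 in control, 0.789 ± 0.0373 with FAC alone, 1.09 ± 0.0740 after Lip-1 and 0.983 ± 0.0772 after MT (SD, n = 3).

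Srebf1, which encodes the transcription factor of the group, changed little (chr11:60199089-60222581, minus strand). It stood at 86.2, 85.8 and 91.1 CPM in control, 90.9, 107 and 92.8 CPM with FAC alone, 85.4, 85.5 and 83.5 CPM in the Lip-1+FAC libraries and 88.7, 89.6 and 89.9 CPM in MT+FAC. The FAC libraries overlapped only those of control, and 1 FAC library, replicate 2, stood apart above the rest. Against FAC, Srebf1 fell by 0.19 (SE 0.0644, edgeR adjusted p = 0.0229) on the log2 scale with Lip-1. Leaving out FAC replicate 2 ended this call (-0.11), as did leaving out Lip-1+FAC replicate 1 (-0.19), 2 (-0.20) or 3 (-0.18) and adding offsets for GC content and length (-0.03). With MT the difference was -0.12 (SE 0.0642, edgeR adjusted p = 0.152), and with FAC alone it was 0.15 (SE 0.0644, edgeR adjusted p = 0.0871). Without FAC replicate 2 these were -0.0378 and 0.0675. Counts cover all transcript forms of the gene, so its separate starts were not distinguished, and these are transcript levels, which do not measure processing of the protein.

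**Figure D4:**
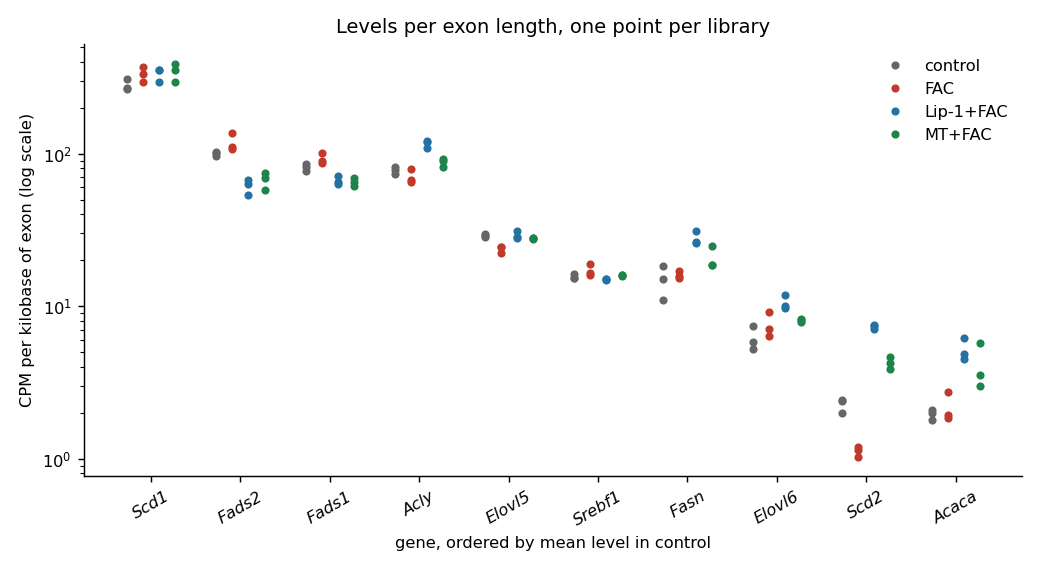
CPM per kilobase of exon (log axis) of each gene, ordered by its mean in control, one point per library, coloured by group. Scd1 leads in all 4 groups, and Scd2 moves from 1.12 in FAC to 7.33 in Lip-1+FAC.

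Levels were compared between genes only per kilobase of exon. In control the order was Scd1 at 280.5 ± 24.1 CPM per kilobase (SD, n = 3), Fads2 at 100.4 ± 3.36, Fads1 at 81.4 ± 4.02, Acly at 77.9 ± 3.82, Elovl5 at 29.0 ± 0.562, Srebf1 at 15.6 ± 0.518, Fasn at 14.8 ± 3.68, Elovl6 at 6.15 ± 1.12, Scd2 at 2.27 ± 0.239 and Acaca at 1.95 ± 0.156. Fads1 and Acly, Srebf1 and Fasn, and Scd2 and Acaca overlapped in this order, and the other neighbours did not. With FAC alone Scd2 took the lowest place at 1.12 CPM per kilobase, below Acaca at 2.17. After Lip-1 pretreatment Acly took the second place at 117 CPM per kilobase, above Fads1 at 66.7 and Fads2 at 61.2, which overlapped. MT+FAC had the same leading genes, with Acly at 87.8 CPM per kilobase, Fads2 at 66.9 and Fads1 at 65.3, the last 2 overlapping.

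The pretreated groups were also set against control. In Lip-1+FAC 7 of 10 genes were called, against 30.2% of all genes (15.4% higher and 14.8% lower). Scd2 (1.69), Acaca (1.40), Fasn (0.91), Elovl6 (0.78) and Acly (0.58) were higher on the log2 scale, and Fads2 (-0.71) and Fads1 (-0.29) were lower, with edgeR adjusted p-values from 1.99e-09 to 0.00398. In MT+FAC 4 of 10 were called, against 19.8% of all genes (9.71% higher and 10.1% lower), and these were Acaca (1.07, edgeR adjusted p = 0.0178), Scd2 (0.90, edgeR adjusted p = 1.15e-05), Fads2 (-0.58, edgeR adjusted p = 0.00296) and Fads1 (-0.32, edgeR adjusted p = 0.00337). The Acaca call was lost without control replicate 1 (1.01) or 3 (1.08). Fasn (0.48), Elovl6 (0.40) and Scd1 (0.30) were not called in MT+FAC against control, but Fasn was called without control replicate 2 (0.66), Elovl6 without control replicate 3 (0.55) and Scd1 without MT+FAC replicate 2 (0.41). Elovl6 was also called there with RLE scaling (0.41), DESeq2 (0.41), only the compared libraries (0.40) and no low-count filter (0.42), and Scd1 with DESeq2 (0.31), thinning to the smallest library (0.32) and no low-count filter (0.32). With the replicate number as a block, Elovl6 (0.42) and Scd1 (0.30) were called there as well. Acly (0.17) was called there without the filter (0.19). Scd1 in Lip-1+FAC against control (0.25) was called without Lip-1+FAC replicate 2 (0.34), with DESeq2 (0.27), only the compared libraries (0.26), no low-count filter (0.27) and the replicate number as a block (0.25). These comparisons share the control libraries with the comparison of FAC with control.

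**Figure D5:**
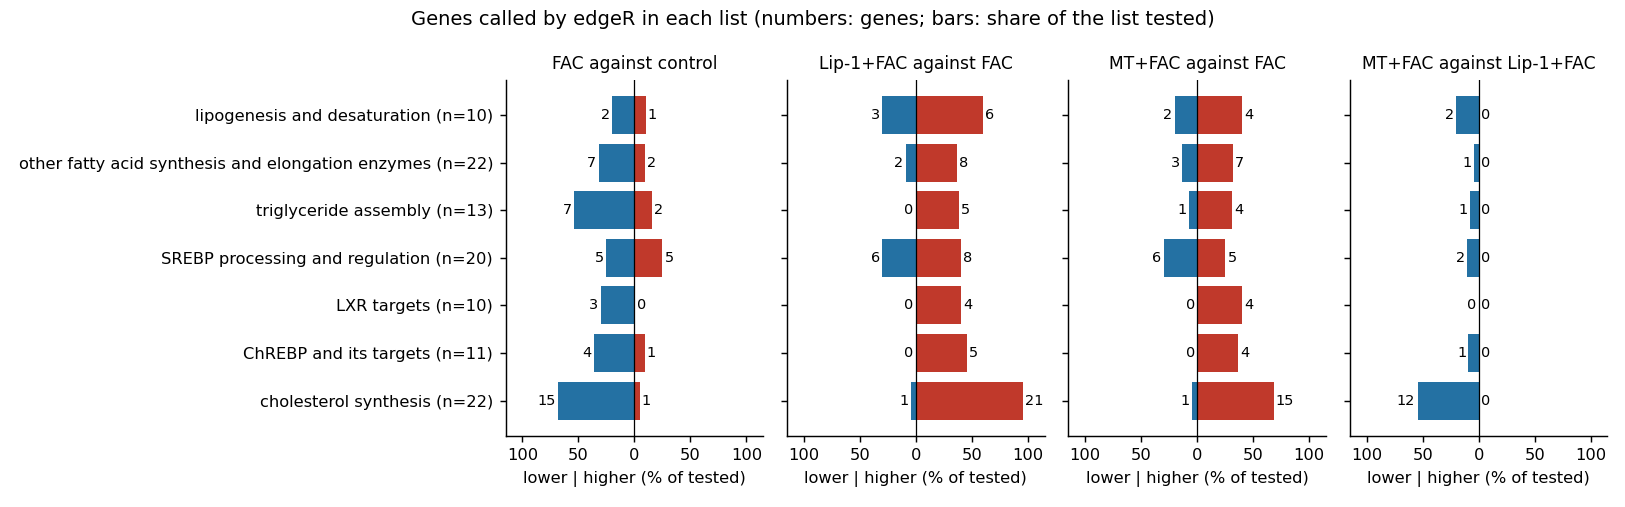
Share of tested genes of each list called higher (red, to the right) or lower (blue, to the left) by edgeR in 4 comparisons, with the number of genes beside each bar. Cholesterol synthesis has 15 of 22 genes lower with FAC and 21 of 22 higher in Lip-1+FAC than in FAC.

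The wider pathway was read through 6 further lists, whose counts stand against the shares of all genes called in each comparison given above. Other fatty acid synthesis and elongation enzymes were tested for 22 of 24 genes. With FAC, 2 were higher and 7 lower (median -0.05). Elovl7 (0.52) and Me1 (0.26), a source of NADPH, rose, and Acss2 (-0.50), which makes acetyl-CoA from acetate, and Oxsm (-0.47) of mitochondrial fatty acid synthesis fell. With Lip-1 over FAC, 8 were higher and 2 lower (median 0.08), with Acss2 (1.01) and Me1 (0.51) up and Hacd1 (-0.52) and the mitochondrial citrate carrier Slc25a1 (-0.24) down. With MT over FAC, 7 were higher and 3 lower (median 0.12), with Acss2 (0.88) and Fads3 (0.54) up and Hacd1 (-0.50) and Elovl7 (-0.25) down. Me1 was the only one of the list called between the pretreatments, at -0.28 in MT+FAC, and that call was lost without any 1 of the 6 libraries compared.

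Triglyceride assembly, tested for 13 of 14 genes, had 2 higher and 7 lower with FAC (median -0.21), where Acsl3 (0.47) and Lpin2 (0.41) rose and the phosphatidate phosphatase Lpin1 (-0.93) and the acyltransferase Agpat2 (-0.64) fell. Over FAC, 5 were higher and 0 lower with Lip-1 (median 0.13), led by the acyl-CoA synthetase Acsl5 (0.56) and Dgat2 (0.55), which adds the last acyl chain. With MT, 4 were higher, led by Acsl5 (0.50) and Agpat2 (0.46), and Acsl3 was lower (-0.22; median of the list 0.14). Acsl3 was also lower in MT+FAC than in Lip-1+FAC (-0.28), and that call was lost when any 1 compared library other than MT+FAC replicate 2 was left out.

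Genes of SREBP processing and regulation split both ways. With FAC 5 of 20 were higher and 5 lower (median 0.03). Sirt1 (0.84), Prkaa1 (0.41), an AMPK subunit, and Scap (0.32) rose, and Lpin1 and Tm6sf2 (-0.86) fell. With Lip-1 over FAC 8 were higher and 6 lower (median 0.03), with Insig1 (0.95), whose protein retains SCAP, and Tm6sf2 (0.91) at the top and Irs2 (-1.33) and Foxo1 (-0.82), genes of insulin signalling, at the bottom. With MT over FAC 5 were higher and 6 lower (median -0.0031), with Tm6sf2 (0.96) and Mbtps1 (0.61), the site-1 protease, up and Irs2 (-1.07) and Sirt1 (-0.70) down. Insig1 separated the pretreatments, at 239 CPM after Lip-1 against 140 CPM after MT (log2 -0.77, edgeR adjusted p = 1.23e-05), as did the AMPK subunit Prkaa2 (-0.38). Srebf2, the paralogue of Srebf1 that drives cholesterol synthesis, rose by 0.32 with Lip-1 over FAC and differed by 0.10 with MT over FAC (edgeR adjusted p = 0.26). Scap, Srebf2 and, below, Mlxipl, Mylip and the value of Nr1h3 with FAC fall outside the naming rule and were chosen after their values were seen.

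Targets of LXR, a sterol-sensing receptor known to activate Srebf1, had 0 of 10 higher and 3 lower with FAC (median -0.10), among them Abcg5 (-0.95) and Abcg8 (-0.78), which export sterols. Nr1h3, the LXR alpha gene, fell by 0.73. With Lip-1 over FAC 4 were higher, led by Abcg5 (1.04) and Smpdl3a (0.55), although the list's median was -0.13. With MT over FAC 4 were higher, led by Abcg5 (0.80) and Nr1h3 (0.53), at a median of 0.20. Between the pretreatments edgeR called 0 of 10, 2 of them at an unadjusted p under 0.05 (Mylip and Nr1h3), and DESeq2 called 0. For ChREBP, a glucose-sensing activator of lipogenesis, and its targets, 1 of 11 was higher and 4 lower with FAC (median -0.38), with Arrdc4 (0.61) up and G6pc (-1.61) down. Without FAC replicate 3, 8 of 11 were called. With Lip-1 over FAC 5 were higher (median 0.50), and with MT over FAC 4 were higher (median 0.38), but 2 were called without FAC replicate 1. Arrdc4 (-0.62) was the 1 gene of this list called between the pretreatments, lost in 5 of the 6 fits that left out a compared library. Mlxipl, the ChREBP gene itself, differed by 0.27 with Lip-1 over FAC (edgeR adjusted p = 0.0945).

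Cholesterol synthesis, the pathway governed by SREBP-2, showed the most uniform pattern. With FAC 15 of 22 genes were lower and 1 higher (median -0.49), with Dhcr7 (-0.84), an enzyme of a late step, among those that fell. With Lip-1 over FAC 21 of 22 were higher and 1 lower (median 0.82), led by Idi1 (1.68) and Dhcr7 (1.37), with Tm7sf2 (-0.34) lower. With MT over FAC 15 were higher and 1 lower (median 0.52), among them Dhcr7 (1.01), with Tm7sf2 (-0.31) lower. Of the 22 genes 12 were called lower in MT+FAC than in Lip-1+FAC and 10 were not called (median -0.39), among them Idi1 (-0.74) and Hmgcs1 (-0.58). The comparisons with FAC share its libraries.

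The genes whose pattern over the 12 libraries was most like that of 4 of the genes are given as a description. Among 8990 protein-coding candidates with a mean of at least 5 CPM, Pearson's r with Scd2 was highest for Gsta3 (0.987), Mocos (0.983) and Cyb5b (0.982). For Fasn these were Rhou (0.976), Kidins220 (0.973) and Dido1 (0.961). For Srebf1 they were Apba3 (0.946), 2510039O18Rik (0.935) and Gdf15 (0.935), and for Scd1 they were Appl2 (0.893), Dyrk3 (0.870) and Nup43 (0.850). The 12 libraries fall into 4 treatment groups and are not independent points, and the genes compared share libraries and depth.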

How the data were processed

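Total RNA of primary mouse hepatocytes was made into cDNA with SMART-Seq v4 and sequenced as Nextera XT libraries, per the labels' protocols. The values deposited by the authors are raw gene counts, whole numbers without normalization. STAR and the genome build GRCm38 are named in the submitters' processing notes, and the aligner version and annotation are not given in the sources used here. PCR amplification without molecular identifiers means that reads are not independent molecules. The unstranded count column was used, no column of per-sample values was left out (0), and lines that name no gene stayed out of library sizes. Of 55487 identifiers, 55227 were found in GENCODE M21, and the rest held 0.00207% of the counts. Reads mapping to several places are counted to no gene in this layout.

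Tests were quasi-likelihood F tests (two-sided) of edgeR 4.0.16 in R 4.3.3 with filterByExpr, TMM scaling, robust dispersions and 4 group means over all 12 libraries, adjusted by Benjamini-Hochberg over 13535 genes, and a call needed an adjusted p under 0.05. The common biological coefficient of variation was 9.71%. Standard errors are the absolute log2 fold change over the square root of F, and intervals are at 95%. CPM are counts scaled after TMM, and levels per kilobase use the union of annotated exons. Copies were searched among annotated transcripts with blastn 2.17.0 (identity of at least 90% over at least 200 bases). The test of FAC against control was also run on simulated counts with changes added to the FAC group, and its outcome is not reported here. The 10 genes and the gene lists, written by hand from general knowledge, were chosen with earlier results of these data known. The naming rule was all 10 genes, up to 2 called rises and 2 called falls of the largest size per list and comparison, and the 3 most similar genes of Scd1, Scd2, Fasn and Srebf1. Some genes that this rule names are not reported here. Lpin1, Thrsp, Nr1h3 and Lpcat3 stand in 2 lists each. Alternative settings were RLE or upper-quartile scaling, no low-count filter or a mean CPM of at least 5, DESeq2 1.42.0, fewer libraries in the fit, the replicate block, the strand columns, the depth (thinning), offsets for GC content and length, and the prior count.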

Additional observations from a re-analysis of the deposited data

How the results depend on the processing

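Of the values of the 10 genes under all alternatives, 956 kept direction and call, 35 gained a call, 18 lost one and 23 changed sign, each of the 23 uncalled. The cause was not tested. Calls among the 10 in FAC against control were 3, and 6 without a low-count filter, 5 with only the compared libraries, and 2 to 5 leaving out each library. MT+FAC against control gave 4 calls, 7 without the filter and 3 to 5 leaving out each library. Leaving out each library gave 8 to 9 calls in Lip-1+FAC against FAC, 5 to 6 in MT+FAC against FAC, 2 in MT+FAC against Lip-1+FAC and 7 to 8 in Lip-1+FAC against control. Over all genes MT+FAC against Lip-1+FAC gave 182 calls, 477 without the filter, 432 with DESeq2, 312 with only the compared libraries, and 74 (without MT+FAC replicate 3) to 156 (without MT+FAC replicate 1).

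With offsets for GC content and length, signs turned for Fasn (-0.0857) and Acaca (-0.0691) in FAC against control, Scd1 in Lip-1+FAC (-0.0731) and MT+FAC (-0.0235) against FAC, Srebf1 in MT+FAC against Lip-1+FAC (-0.0121) and Srebf1 in Lip-1+FAC against control (0.0319). Scd1 in Lip-1+FAC against FAC was -0.00985 at a mean CPM of at least 5 and -0.00113 with only the compared libraries. Elovl5 in Lip-1+FAC against control was -0.0123 with upper-quartile scaling and -0.00249 at a mean CPM of at least 5. Leaving out each library turned the sign of Fasn in FAC against control (-0.0671 to 0.29), Acaca in FAC against control (-0.0452 to 0.24), Scd1 in Lip-1+FAC against FAC (-0.067 to 0.0905), Scd1 in MT+FAC against FAC (-0.0341 to 0.15), Scd1 in MT+FAC against Lip-1+FAC (-0.0462 to 0.14), Fads1 in MT+FAC against Lip-1+FAC (-0.083 to 0.0236) and Elovl5 in Lip-1+FAC against control (-0.0385 to 0.046). Adding pseudogene counts to Acaca and Elovl6, chosen after seeing the data, changed no call.

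Over all genes, the replicate numbers gave no clear pairing of the libraries. Of the same-numbered pairs, 3 of 18 correlated over 0.1 (-0.249 to 0.164), and in 7 of 18 matches of a library to another group its own number correlated best. With 3 libraries per group this check cannot exclude pairing. The summed level of the 10 genes was lowest in replicate 2 and highest in replicate 3 in each of the 4 groups. With the replicate number as a block, FAC against control gave 5 calls among the 10, Lip-1+FAC against control 8 and MT+FAC against control 6. It called Scd1 against control in FAC (0.24), Lip-1+FAC (0.25) and MT+FAC (0.30), and Elovl6 in FAC (0.29) and MT+FAC (0.42). It changed no other call of the 10. Of the 10 genes, Scd2 in FAC had the fewest counts.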
